A study of Mus musculus with 12 samples.

Results

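The expression of 10 genes of bile acid synthesis, conjugation, transport and sensing was examined in the livers of ob/ob mice with and without ethionine. The genes were Cyp7a1, Cyp8b1, Cyp27a1, Cyp7b1, Baat, Slc10a1, Slco1b2, Abcb11, Nr1h4 and Nr0b2, taken by symbol from the 56205 genes of the count table. All 10 were found, and all 10 passed the low-count filter. The mice were B6.Cg-Lep ob/J animals, which lack leptin and become obese, described as males aged 8 to 10 weeks when treatment began. In the FLO group 6 mice received standard chow alone. In the fibrotic group 6 mice received the same chow plus DL ethionine, the ethyl analogue of methionine. Both group names are those of the sample titles, and fibrosis was not measured here. The study reported no difference in Col1a1 expression in its ethionine-treated ob/ob mice. The sources differ on how ethionine was given, as 0.165% in the drinking water (with a duration of 2 weeks in the design text), as an injection of 0.15%, or as 0.15% in the drinking water for 1 week. RNA came from whole liver, with 1 poly(A) library per mouse, so each value is an average over all liver cells, and fewer cells of a type cannot be told apart from less RNA per cell.

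Bile acids are made from cholesterol in hepatocytes. The classic route begins with the 7-alpha-hydroxylase Cyp7a1, its rate-limiting enzyme, and Cyp8b1 adds the 12-alpha-hydroxyl group that directs the product to cholic acid. The acidic route begins with the mitochondrial sterol 27-hydroxylase Cyp27a1, followed by the oxysterol 7-alpha-hydroxylase Cyp7b1. Baat joins the finished acid to taurine or glycine. Slc10a1 (NTCP) and Slco1b2 (OATP1B2) take bile acids up from the blood, and Abcb11 (BSEP) pumps them into the bile canaliculus. Nr1h4 (FXR) is the nuclear receptor that senses them, and Nr0b2 (SHP) is a corepressor whose gene is a classic FXR target.

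Total counts ran from 17815568 to 20352675 in the fibrotic libraries and from 18275320 to 24814263 in the FLO libraries. The TMM factor, which scales the library sizes, was 0.965 to 1.20 in fibrotic and 0.913 to 0.963 in FLO libraries. The groups did not overlap in it (two-sided exact permutation test, p = 0.00216, adjusted over 10 measures 0.0072), and fibrotic replicate 4 had the highest factor. Fits with other normalizations are given below, and the part of the factor itself in calls near the fold limit was not tested. On the leading principal component, which held 59.7% of the variance, the FLO libraries lay between -51.1 and -43.3 and the fibrotic libraries between 30.9 and 67.6, with fibrotic replicate 4 at the far end. FLO replicate 3 went against the male label, with 3773 counts of Xist, the RNA of the inactive X chromosome, against 0 to 4 in the other libraries, and 4 counts of the Y-linked Ddx3y against 556 to 977. It was kept under its label, and results that changed without it are given with and without it. The summed level of 8 hepatocyte markers was 94542 ± 13951 CPM (counts scaled to a common library size, SD, n = 6) in fibrotic and 100332 ± 4948 CPM in FLO livers (two-sided exact permutation test, p = 0.392), and fibrotic replicate 4 was lowest at 72562 CPM. None of the hepatocyte markers was at 0 in any library.

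In ethionine-treated livers, transcripts of 4 of the 10 genes fell and none was called higher. The genes that fell were the uptake carrier Slco1b2, the canalicular pump Abcb11, the sterol 27-hydroxylase Cyp27a1 and the conjugating enzyme Baat. A gene was called by edgeR's quasi-likelihood test when its Benjamini-Hochberg FDR was at most 0.01 and its log2 fold change was beyond 0.5 in either direction. By these limits 29.9% of the 13416 tested genes were called, 15.9% of them higher and 14.0% lower, so 4 of 10 lower stood beside a background of 14.0%. For the same 4 genes every fibrotic liver was below every FLO liver, which held for 15.1% of all tested genes, while 15.3% had every fibrotic liver above every FLO liver and none of the 10 did. Among the 7828 genes expressed at least as highly as the lowest of the 10, 15.1% were called lower and 16.3% higher. The median log2 fold change of the 10 genes was -0.54, against 0.03 over all tested genes. No gene of the 10 was called higher by edgeR, but 1 gene, Cyp7a1, had a higher level at an unadjusted p under 0.05, and it was called higher by both DESeq2 and limma-voom. The number called lower was 5 by DESeq2 and 6 by limma-voom. Over all genes these tools called 2240 and 1900 lower, against 1873 by edgeR, and 2415 and 2076 higher, against 2139.

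**Figure D1:**
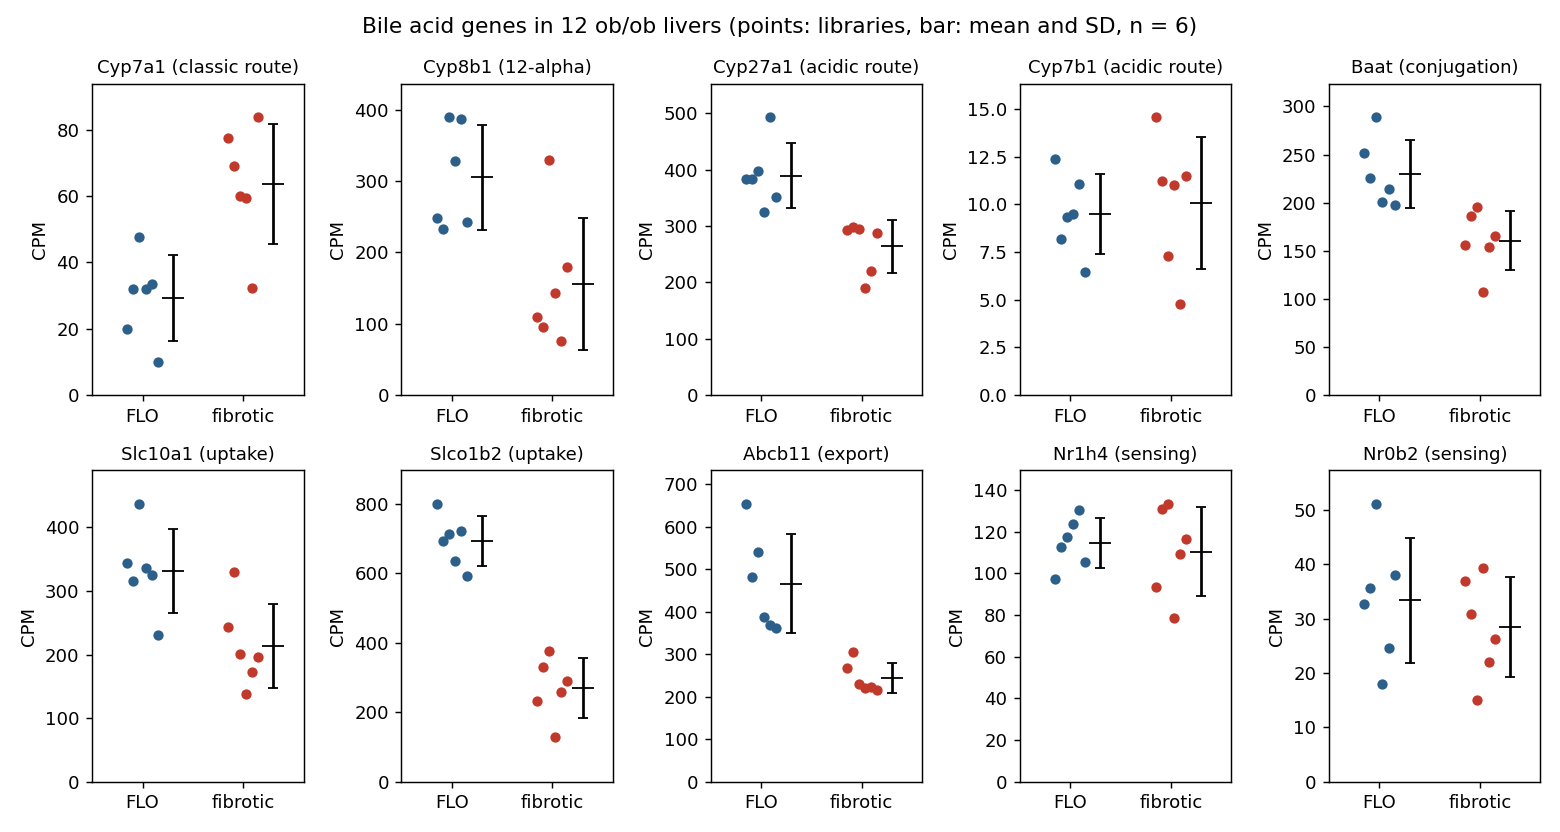
Level of each of the 10 genes in each library, in CPM scaled to the TMM-normalized library size, on linear axes that start at 0. Points are single livers, 6 per group, and bars give the mean and SD. The groups do not overlap for Cyp27a1, Baat, Slco1b2 and Abcb11, while Nr1h4 and Nr0b2 are intermixed.

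To show where the genes with the largest called falls begin, the 250 bases before the start site of Slco1b2 and Abcb11 are printed, with those of Cyp8b1 and Nr0b2 for comparison. RefSeq windows (GRCm38.p6) were at hand for 7 of the 10 genes. The sequences run 5′ to 3′ on the gene's strand and end at the base before the start site. Capitals mark matches on either strand to AGGTCA (a nuclear receptor hexamer), CAAGGNCA (an NR5A2 site) or CAAAGTCCA (an HNF4A site).
Slco1b2, chr6:141629268-141629517, plus strand: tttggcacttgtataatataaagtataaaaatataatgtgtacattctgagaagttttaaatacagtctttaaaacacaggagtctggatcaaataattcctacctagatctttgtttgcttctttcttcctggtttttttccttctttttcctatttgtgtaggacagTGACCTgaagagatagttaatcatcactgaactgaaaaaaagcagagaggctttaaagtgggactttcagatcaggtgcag
Abcb11, chr2:69342617-69342866, minus strand: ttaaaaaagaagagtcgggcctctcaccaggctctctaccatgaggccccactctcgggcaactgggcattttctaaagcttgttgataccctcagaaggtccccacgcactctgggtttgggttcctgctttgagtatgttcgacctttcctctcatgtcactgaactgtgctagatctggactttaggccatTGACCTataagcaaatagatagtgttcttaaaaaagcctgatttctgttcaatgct
Cyp8b1, chr9:121916306-121916555, minus strand: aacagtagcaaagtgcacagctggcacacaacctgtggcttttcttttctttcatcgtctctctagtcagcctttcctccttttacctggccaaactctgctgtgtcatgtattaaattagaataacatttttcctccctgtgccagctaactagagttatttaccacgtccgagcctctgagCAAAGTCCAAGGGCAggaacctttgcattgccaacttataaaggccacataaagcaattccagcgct
Nr0b2, chr4:133553126-133553375, plus strand: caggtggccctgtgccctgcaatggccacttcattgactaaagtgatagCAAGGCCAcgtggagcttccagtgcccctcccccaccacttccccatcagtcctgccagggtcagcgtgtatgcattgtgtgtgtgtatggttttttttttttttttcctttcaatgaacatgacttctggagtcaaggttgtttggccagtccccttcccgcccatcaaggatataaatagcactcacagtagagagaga

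In the Slco1b2 window AGGTCA lay on the opposite strand at -81 to -76, counted from the start site. Abcb11 had AGGTCA on the opposite strand at -56 to -51. In Cyp8b1 the match to CAAAGTCCA at -67 to -59 overlapped a match to CAAGGNCA at -60 to -53. Nr0b2 held CAAGGNCA at -201 to -194. Of the members not printed, Nr1h4 and the second of the Slc10a1 windows held AGGTCA, and Cyp27a1 held none of the motifs. Of all 32851 windows of this length, 14.0% held AGGTCA, 5.53% CAAGGNCA and 0.384% CAAAGTCCA on either strand. The inverted repeat AGGTCANTGACCT, the form of site classically bound by FXR with its partner RXR, was in 0.00609% of all windows (2 of 32851) and in none of the 7 members' windows. Only exact matches were searched, and one this rare would be missing from almost any 7 genes. Its absence therefore says nothing about FXR sites in these genes. The Abcb11 window holds a near match, aggccatTGACCT, around its marked AGGTCA, and near matches were not counted. These matches describe letters only and no binding was measured.

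Synthesis was examined first, beginning with the classic route. Cyp7a1 (ENSMUSG00000028240, chr4:6265612-6275633, minus strand, GRCm38) was measured at 19.9, 31.9, 47.8, 32.0, 33.5 and 9.80 CPM in FLO replicates 1 to 6. The fibrotic libraries held 77.4, 68.9, 60.0, 59.3, 32.2 and 83.8 CPM. All but fibrotic replicate 5 lay above the highest FLO library. The mean was 63.6 ± 18.1 CPM (SD, n = 6) against 29.1 ± 13.0 CPM, a log2 fold change of 1.13 (SE 0.32), or 2.18-fold. The edgeR quasi-likelihood FDR of 0.0102 missed the limit of 0.01. Without FLO replicate 3, the library against its sex label, the log2 fold change was 1.32 and Cyp7a1 passed (adjusted p = 0.0037), as it also did without fibrotic replicate 5 (1.27, adjusted p = 0.0040) or without FLO replicate 6 (0.94, adjusted p = 0.0061). Over all alternatives its log2 fold change lay between 0.94 and 1.33 and its adjusted p between 0.0036 and 0.050.

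Cyp8b1 (ENSMUSG00000050445, chr9:121914356-121916305, minus strand) had a lower mean in fibrotic livers, at 155 ± 92.7 against 305 ± 73.2 CPM. Its FLO values were 249, 233, 390, 329, 388 and 243 CPM, and its fibrotic values were 110, 95.3, 329, 143, 76.0 and 180 CPM. Fibrotic replicate 3 stood among the FLO libraries, and the other 5 fibrotic libraries were below the lowest of them. Its log2 fold change of -0.97 (SE 0.31) did not pass (FDR 0.0196 in the edgeR quasi-likelihood test). Without fibrotic replicate 3 it was -1.33 with an adjusted p of 0.00022, and over the alternatives the adjusted p ran from 0.00022 to 0.0626. The coefficient of variation in fibrotic livers was 59.6% for Cyp8b1, against 14.6% to 34.6% for the other 9 genes.

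The counts of Cyp8b1 and Cyp7a1 were set against each other within each library, which does not depend on how libraries are scaled. For every count of Cyp7a1, FLO livers held 12.5, 7.30, 8.16, 10.3, 11.6 and 24.8 counts of Cyp8b1. Fibrotic livers held 1.42, 1.38, 5.48, 2.41, 2.36 and 2.14. The groups did not overlap, and the geometric mean was 11.4 in FLO and 2.25 in fibrotic livers. The log2 difference was -2.34 (two-sided exact permutation test over all splits of 6 and 6, p = 0.00216, the smallest these groups allow, adjusted over 3 ratios p = 0.0032). The ratio was lower in 6 of 6 fibrotic livers than in any FLO liver.

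Cyp27a1 (ENSMUSG00000026170, chr1:74713574-74737892, plus strand), which opens the acidic route, fell. It was measured at 384, 384, 397, 324, 493 and 352 CPM in FLO and at 294, 298, 294, 189, 220 and 287 CPM in fibrotic livers. Every fibrotic liver was below every FLO liver. Its log2 fold change was -0.56 (SE 0.13, edgeR quasi-likelihood FDR 0.0020), close to the fold limit, and it was -0.47 without fibrotic replicate 4 and -0.48 without FLO replicate 5, under that limit. The ratio of Cyp27a1 to Cyp7a1 counts had a geometric mean of 14.8 in FLO livers (8.31 to 35.8) and 4.26 in fibrotic livers (3.19 to 6.83). The ratios did not overlap, with a log2 difference of -1.79 (exact permutation p = 0.00216, the smallest possible, adjusted p = 0.0032, lower in 6 of 6).

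Cyp7b1 (ENSMUSG00000039519, chr3:18071950-18243338, minus strand), the next enzyme of the acidic route, was the lowest of the 10 per kilobase of transcript in both groups. It ranged from 6.45 to 12.4 CPM in FLO (median 9.41) and from 4.78 to 14.6 CPM in fibrotic livers (median 11.1). The ranges covered each other. The log2 fold change was 0.09 with a 95% interval from -0.40 to 0.57 (edgeR quasi-likelihood FDR 0.768).

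**Figure D2:**
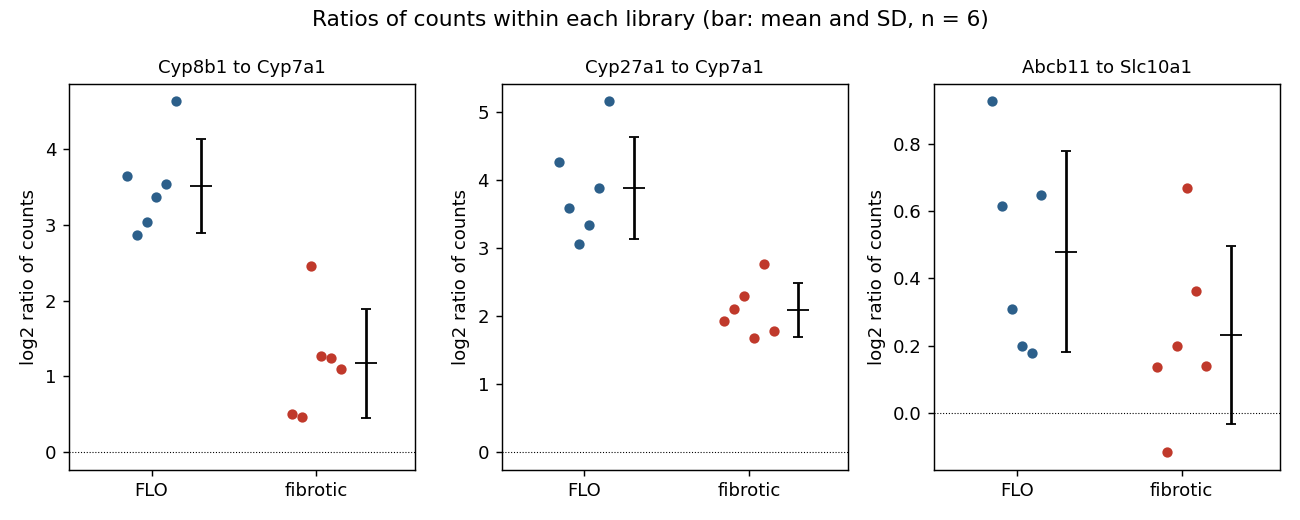
Log2 ratio of the counts of gene pairs within each library, with 6 FLO and 6 fibrotic livers as points and bars for the mean and SD. The ratios of Cyp8b1 and of Cyp27a1 to Cyp7a1 do not overlap between the groups, and those of Abcb11 to Slc10a1 do.

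Conjugation was represented by Baat (ENSMUSG00000039653, chr4:49489422-49506557, minus strand), which fell by 0.52 on the log2 scale. FLO livers held 252, 225, 289, 201, 215 and 197 CPM, and fibrotic livers 155, 186, 195, 107, 154 and 165 CPM. The highest fibrotic liver lay just under the lowest FLO liver. The call (SE 0.14, edgeR quasi-likelihood FDR 0.0048) rested close to the fold limit. Without FLO replicate 3 the log2 fold change was -0.44 with an adjusted p of 0.0124, and without fibrotic replicate 4 it was -0.42, neither of which was called. The call was also lost without fibrotic replicate 1 (adjusted p = 0.0108), fibrotic replicate 5 (adjusted p = 0.0128) or FLO replicate 1 (adjusted p = 0.0116). It was lost with the sex covariate too, which sets apart FLO replicate 3 alone and so nearly repeats the fit without that library. In all the call was lost in 6 of 22 alternatives, and over the alternatives the adjusted p ran from 0.00096 to 0.0128.

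The uptake carriers were lower in level in ethionine-treated livers, and of the pair Slco1b2 was called. Slco1b2 (ENSMUSG00000030236, chr6:141629518-141686646, plus strand) was measured at 800, 694, 712, 636, 722 and 592 CPM in FLO livers. Fibrotic livers held 234, 330, 376, 129, 259 and 289 CPM, and the groups were well apart. The log2 fold change was -1.36 (SE 0.19, edgeR quasi-likelihood FDR 3.64e-05), a 2.57-fold fall and the largest of the 10 genes. It lay between -1.47 and -1.21 when any library was left out and was called under every alternative run.

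Slc10a1 (ENSMUSG00000021135, chr12:80953183-80968705, minus strand), the sodium-dependent carrier, was measured at 344, 315, 437, 336, 325 and 231 CPM in FLO livers. The fibrotic values were 243, 330, 200, 139, 173 and 196 CPM. Fibrotic replicates 1 and 2 lay within the FLO range and the other 4 below it. The log2 fold change was -0.64 (SE 0.19), and the edgeR quasi-likelihood FDR of 0.0104 missed the limit. It passed without fibrotic replicate 2 (-0.80, adjusted p = 0.00072), without FLO replicate 6 (-0.72, adjusted p = 0.0047) and in DESeq2 (-0.65, adjusted p = 0.0024), with adjusted p between 0.00072 and 0.0274 over the alternatives.

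Abcb11 (ENSMUSG00000027048, chr2:69238282-69342616, minus strand), the bile salt export pump, fell. FLO livers held 654, 483, 541, 387, 368 and 361 CPM, and fibrotic livers 267, 305, 230, 220, 222 and 215 CPM. The groups did not overlap, and the spread was wider in FLO livers, with a coefficient of variation of 25.1% against 14.6%. The log2 fold change was -0.94 (SE 0.15, edgeR quasi-likelihood FDR 9.85e-05), a 1.91-fold fall that was called under every alternative that kept the thresholds. Export was not shown to fall more than uptake by Slc10a1. The within-library ratio of Abcb11 to Slc10a1 had a geometric mean of 1.17 in fibrotic and 1.39 in FLO livers, a log2 difference of -0.25 with overlapping groups (exact permutation p = 0.175).

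The sensing genes were not called. Nr1h4 (ENSMUSG00000047638, chr10:89454234-89533585, minus strand) was at 97.2, 113, 118, 124, 131 and 106 CPM in FLO and at 93.4, 131, 134, 78.8, 110 and 116 CPM in fibrotic livers. The groups were intermixed. Nr1h4 had a log2 fold change of -0.05 (95% interval -0.31 to 0.21, edgeR quasi-likelihood FDR 0.733). Nr0b2 (ENSMUSG00000037583, chr4:133553376-133556536, plus strand) held 32.8, 35.6, 51.2, 18.0, 24.6 and 38.0 CPM in FLO and 37.0, 30.9, 15.0, 39.3, 22.1 and 26.3 CPM in fibrotic livers. Its libraries were intermixed too, with a log2 fold change of -0.23 (95% interval -0.78 to 0.32, FDR 0.474), so the interval for Nr0b2 was wider than that for Nr1h4.

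Relations between the sensors and genes they are known to act on were examined within each group of 6, over 4 pairs of genes and 8 relations in all. The strongest by Pearson's r, between Nr1h4 and Nr0b2 in fibrotic livers, was r = -0.73 (exact permutation p = 0.0944, adjusted p = 0.737) with Spearman's rho = -0.77 (exact permutation p = 0.103, adjusted p = 0.822). Without the 2 livers farthest from the median of Nr1h4 its r was -0.22, so it rested on those livers. For Nr0b2 with Cyp7a1, r was 0.34 in fibrotic (exact permutation p = 0.503) and -0.052 in FLO livers (exact permutation p = 0.919). No relation passed after adjustment over the 8, and 6 livers per group give little precision.

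Where the genes stood among each other was compared per kilobase of the longest annotated transcript. In FLO livers the order of CPM per kilobase was Slco1b2 (209 ± 21.9, SD), Cyp27a1 (206 ± 30.4), Slc10a1 (190 ± 37.8), Cyp8b1 (157 ± 37.6), Baat (118 ± 18.0), Abcb11 (92.7 ± 23.2), Nr1h4 (57.0 ± 6.03), Nr0b2 (29.5 ± 10.1), Cyp7a1 (6.98 ± 3.11) and Cyp7b1 (4.38 ± 0.968). For neighbours from Slco1b2 to Abcb11, and for Cyp7a1 and Cyp7b1, the ranges of the mean plus and minus the SD overlapped, and between Abcb11, Nr1h4, Nr0b2 and Cyp7a1 they did not. In fibrotic livers Cyp27a1 (139 ± 24.7) and Slc10a1 (122 ± 38.1) led, and Slco1b2 (81.5 ± 25.9) was level with Baat (82.7 ± 16.0) and Cyp8b1 (79.7 ± 47.5). Nr1h4 (54.9 ± 10.6) and Abcb11 (48.4 ± 7.05) had exchanged places with overlapping SD ranges. Nr0b2 (25.1 ± 8.11) and Cyp7a1 (15.2 ± 4.35) overlapped, and Cyp7b1 (4.65 ± 1.61) was last.

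**Figure D3:**
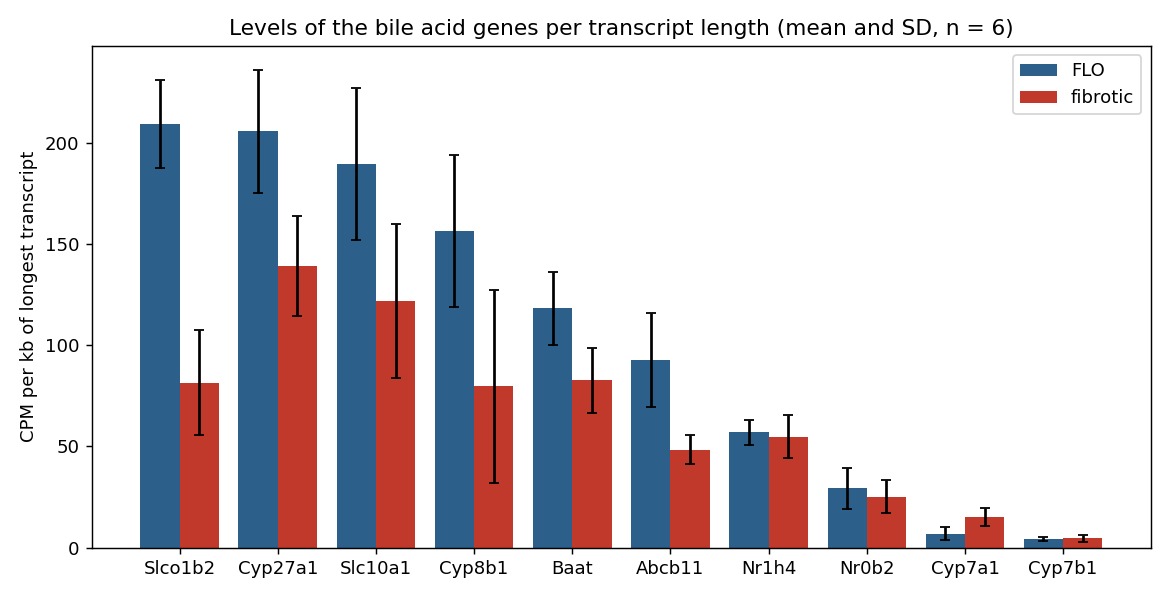
Level of each of the 10 genes per kilobase of its longest transcript, on a linear axis from 0, as bars of the mean with the SD of 6 livers per group. Slco1b2 leads at 209 CPM per kilobase in FLO livers and stands at 81.5 in fibrotic livers, and Cyp7a1 goes from 6.98 to 15.2.

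Other genes of bile acid handling were listed by role, 39 in all, of which 35 passed the filter. Of these, 5 were called higher and 11 lower, beside backgrounds of 15.9% and 14.0%, and their median log2 fold change was -0.08. Among 13 other synthesis genes (12 tested), 6 fell, 2 rose and 4 were not called, with a median of -0.62.

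The largest fall among the synthesis genes was that of Akr1d1, the 5-beta-reductase that gives bile acids their bent ring system. It was at 226, 187, 245, 148, 124 and 133 CPM in FLO and at 49.3, 70.1, 53.4, 41.1, 42.8 and 45.6 CPM in fibrotic livers, with no overlap (log2 fold change -1.81, SE 0.18, edgeR quasi-likelihood FDR 1.77e-06). Slc27a5, the bile acyl-CoA synthetase that acts just before Baat, fell from 907 to 1145 CPM in FLO to 238 to 555 CPM in fibrotic livers, by 1.39 on the log2 scale (SE 0.17, FDR 7.81e-06). Genes of the peroxisomal shortening of the side chain, or of the steps that prepare it, fell by less. These were Scp2 (-0.89), Slc27a2 (-0.85), Amacr (-0.71) and Hsd17b4 (-0.54), while Acox2 (-0.30, FDR 0.17) was not called. Cyp39a1, a 7-alpha-hydroxylase of 24-hydroxycholesterol, rose from 20.5 to 34.5 CPM in FLO to 47.3 to 83.5 CPM in fibrotic livers (log2 fold change 1.17, SE 0.16, FDR 1.93e-05). Akr1c14, a 3-alpha-hydroxysteroid dehydrogenase, also rose (0.59, FDR 0.0038), with overlapping groups and with close paralogues among which reads could be split. Hsd3b7 (-0.02, FDR 0.921) and Cyp2c70 (-0.0033, FDR 0.994), the latter a member of a large family, were not called.

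All 3 other uptake carriers were called, 2 lower and 1 higher, beside 14.0% and 15.9% of all tested genes. Slco1a4 fell from 27.7 to 47.6 CPM in FLO to 4.95 to 11.3 CPM in fibrotic livers (log2 fold change -2.01, SE 0.20, edgeR quasi-likelihood FDR 1.9e-06). Slco2b1 fell from 188 to 248 CPM to 22.5 to 112 CPM (-1.66, SE 0.30, FDR 0.00042). The groups did not overlap for either of them. Slco1a1 was nearly absent in both groups, at 11 to 100 counts per library, and its higher call (1.65, SE 0.44, FDR 0.0062) came with overlapping groups and was lost in 12 of 22 alternatives. Slco1a1 and Slco1a4 are close paralogues, so reads could be split between them.

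Of the 5 other canalicular transporters Abcg5, a subunit of the sterol exporter, rose from 61.0 to 81.9 CPM to 105 to 138 CPM (log2 fold change 0.67, SE 0.095, edgeR quasi-likelihood FDR 3.08e-05). Its partner Abcg8 (0.20, FDR 0.108), the phospholipid floppase Abcb4 (0.16, FDR 0.211), the conjugate exporter Abcc2 (0.19, FDR 0.306) and the flippase Atp8b1 (0.34, FDR 0.073) were not called. None of these 5 was called lower by edgeR, DESeq2 or limma-voom, and 0 of them had a lower level at an unadjusted p under 0.05.

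Basolateral efflux genes, which carry bile acids back to the blood, went in different directions. Abcc4 (MRP4) rose from 74.2, 44.7, 39.1, 39.9, 25.0 and 26.4 CPM in FLO to 94.0, 108, 120, 123, 102 and 92.2 CPM in fibrotic livers, without overlap (log2 fold change 1.36, SE 0.22, edgeR quasi-likelihood FDR 0.00016). Abcc3 (MRP3) fell by 0.70 (SE 0.13, FDR 0.0003). Slc51a (1.20, FDR 0.0162) and Slc51b (0.72, FDR 0.196), the chains of the organic solute transporter, were at 2 to 28 counts per library and not called. These transporters are also made by cholangiocytes, whose 7 markers summed to 80.9 to 276 CPM in fibrotic and 47.2 to 88.2 CPM in FLO livers (exact permutation p = 0.0043, adjusted over 10 library measures 0.0108). Of these markers 3 of 5 tested (Epcam, Sox9 and Spp1) were called higher, beside 15.9% of all tested genes. Most of the sum was Spp1, at a mean of 122 of 145 CPM in fibrotic and 60.5 of 69.8 CPM in FLO livers. None of the markers was at 0 in every library, and their part in the result was not tested.

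Among 14 other sensing and regulatory genes (11 tested), Nr1i3 and Fgfr4 fell and 9 were not called. Over all tested genes 14.0% were called lower, so this count was near the background. Nr1i3 (CAR), a nuclear receptor of bile acid and drug detoxification, fell 11.5-fold, from 260, 327, 263, 310, 457 and 356 CPM to 24.0, 43.4, 52.4, 8.56, 17.8 and 25.0 CPM (log2 fold change -3.53, SE 0.37, edgeR quasi-likelihood FDR 6.47e-06). This was the largest fall among the 35 tested genes of these lists. Fgfr4, the hepatocyte receptor for the ileal hormone FGF15 that represses Cyp7a1, fell from 47.2, 33.3, 47.4, 33.8, 30.4 and 33.2 CPM to 22.6, 13.8, 16.8, 10.4, 13.4 and 11.7 CPM. Every fibrotic liver was below every FLO liver for both receptors, and the log2 fold change of Fgfr4 was -1.34 (SE 0.18, FDR 2.14e-05). Its co-receptor Klb was not called (-0.78, FDR 0.0165). Fgf15 itself had 0 counts in all 12 libraries, which allows at most 3 counts per library, or 0.121 to 0.168 CPM (counting error only).

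Of the factors known to drive or modulate bile acid genes, 5 were not called, with log2 fold changes of -0.08 for Hnf4a (FDR 0.536), 0.30 for Nr5a2 (FDR 0.0191), 0.15 for Rxra (FDR 0.224) and -0.14 for Nr1h3 (FDR 0.199). Prox1, a repressor of Cyp7a1, had an FDR of 0.0078 at a log2 fold change of -0.42, under the fold limit. Ppargc1a (0.64, FDR 0.0317) and Nr1i2 (-0.37, FDR 0.114) did not pass. None of the 11 tested was called higher by edgeR, DESeq2 or limma-voom, and 2 had a higher level at an unadjusted p under 0.05.

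**Figure D4:**
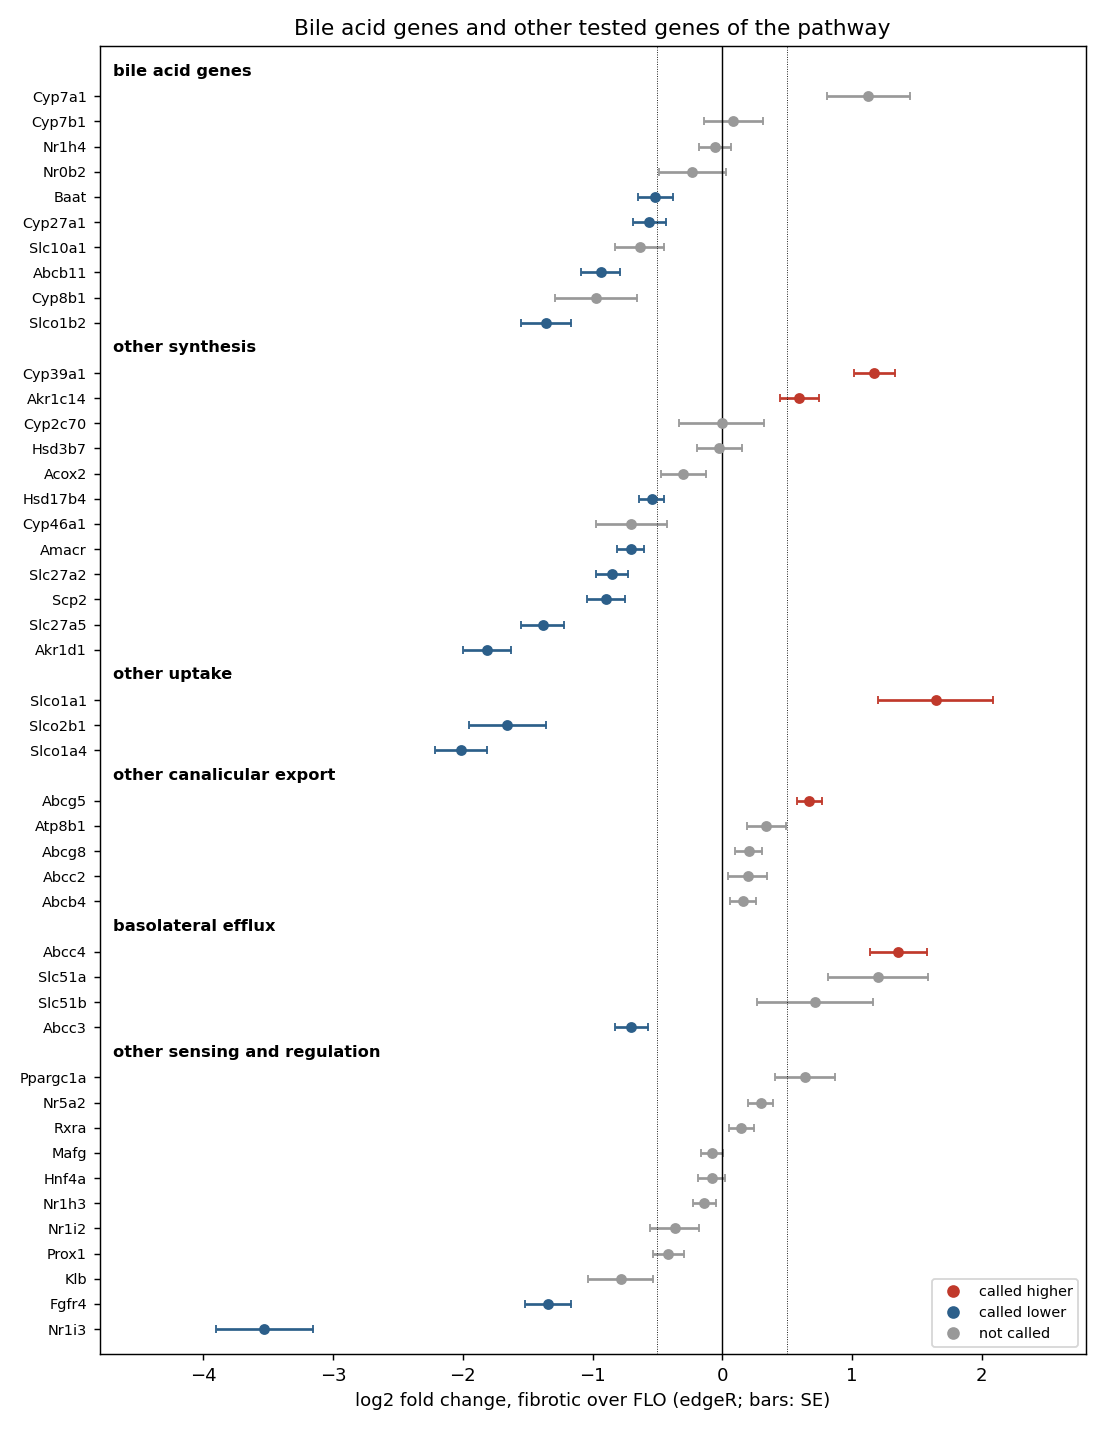
Log2 fold change, fibrotic over FLO, of the 10 bile acid genes and the 35 other tested genes by role, with bars of 1 SE and dotted lines at the fold limit of 0.5. Nr1i3 lies farthest to the left at -3.53, and Slco1a1, Abcc4, Slc51a, Cyp39a1 and Cyp7a1 lie beyond 1 on the right, of which Slc51a and Cyp7a1 were not called.

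Marker sums of Kupffer cells, macrophages and endothelial cells also differed between the groups, while those of stellate cells and lymphocytes did not pass. The counts of called markers stand beside 15.9% called higher and 14.0% called lower over all tested genes. Kupffer cell markers summed to 231 ± 59.7 CPM in fibrotic and 143 ± 12.4 CPM in FLO livers (SD, n = 6, exact permutation p = 0.00216, 4 of 5 markers called higher). Macrophage markers summed to 80.7 to 192 CPM against 64.5 to 101 CPM (exact permutation p = 0.0152, 2 of 7 called higher). Endothelial markers were at 143 ± 16.7 against 178 ± 9.16 CPM (exact permutation p = 0.00216, 1 of 6 called lower), and stellate cell markers at 313 ± 68.3 against 286 ± 42.3 CPM (exact permutation p = 0.446, 1 of 7 called higher). Of the stellate cell markers Lrat was called higher (log2 fold change 0.72). The collagen genes Col1a1 (-0.22, edgeR quasi-likelihood FDR 0.611) and Col3a1 (-0.03, FDR 0.925) were not called. Lymphocyte markers were at 0.936 to 3.50 against 1.21 to 2.67 CPM (exact permutation p = 0.530), with 4 of 5 under the filter. Of the hepatocyte markers, 3 of 8 were called higher (Apoc3, Fgb and Ahsg) and 1 lower (Apoa1), so hepatocyte genes did not move in 1 direction. The mitochondrial share of counts was 6.49 ± 1.15% in fibrotic and 8.62 ± 1.09% in FLO livers (exact permutation p = 0.0108, adjusted over 10 measures 0.0216). The part of these in the fall of the 4 genes was not tested.

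Individual livers differed in how the 10 genes stood. Fibrotic replicate 4, the library at the far end of the leading component, had the lowest fibrotic level of Cyp27a1, Baat, Slc10a1, Slco1b2 and Nr1h4, and also the lowest hepatocyte marker sum. Without it 2 of the 10 genes were called lower, namely Slco1b2 and Abcb11. After subtraction of the group means, the residual log2 CPM of Baat and Slco1b2 had r = 0.891 over the 12 livers, the highest of the 45 pairs, and Nr1h4 with Nr0b2 had the lowest at -0.60. The median over the pairs was 0.32, and all pairs share their libraries and scaling, so these values are given as descriptions only. Of 11204 genes compared in the same way, those most like Cyp7a1 were Cd320 (r = 0.857), Nit1 (0.819) and Slc9a8 (0.817). Those most like Slc10a1 were Cyc1 (0.942), Pgk1 (0.923) and Gpt (0.920), and those most like Nr0b2 were Bbc3 (0.901), Tbc1d22b (0.851) and Lzic (0.843).

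**Figure D5:**
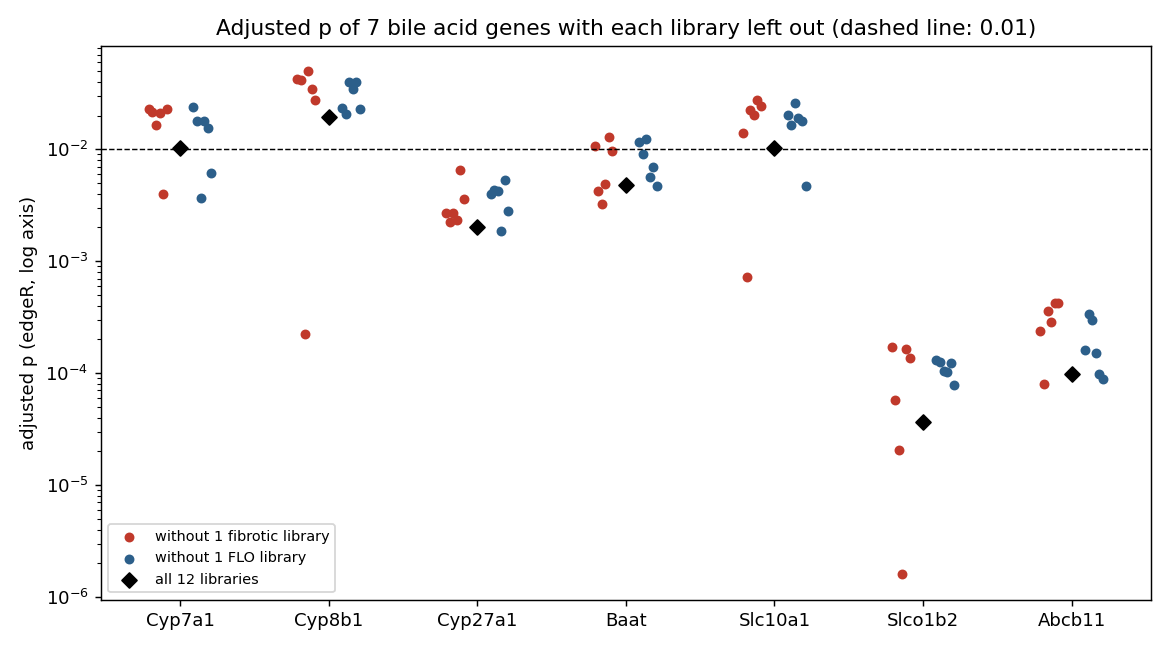
Adjusted p (edgeR, log axis) of 7 of the 10 genes with all 12 livers (diamond) and with each fibrotic (red) or FLO (blue) liver left out, with a dashed line at 0.01. The points of Slco1b2, Abcb11 and Cyp27a1 all lie under the line, although Cyp27a1 misses the fold limit in 2 of them, and those of Cyp7a1, Cyp8b1, Baat and Slc10a1 lie on both sides of it.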

How the data were processed

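Whole-liver RNA of 12 ob/ob mice was measured by poly(A) RNA-seq, 6 per group, with groups and replicate numbers read from the sample titles. The authors deposited unnormalized counts, as whole numbers for each Ensembl gene. Per the labels, reads were processed with bcl2fastq and STAR 2.7.3a against mm10, and PISCES is the quantification tool that the study's methods give. The annotation and the strand setting are not given in the sources used here, so overlapping and antisense genes may share reads. Symbols matched 51745 of 56205 identifiers, and those without a symbol held 0.0587% of counts. Coordinates and transcript lengths came from GENCODE M21 on GRCm38.

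Differential expression was computed in R 4.3.3 with edgeR 4.0.16 (quasi-likelihood, robust), TMM normalization, filterByExpr and Benjamini-Hochberg adjustment over all 13416 tested genes. The thresholds are those of the study. An SE is the absolute log2 fold change divided by the square root of F. CPM was scaled to the TMM library size, and log2 CPM used a prior count of 2. Ratios within libraries had 0.5 added to both counts. Ratios, marker sums and library measures were compared by two-sided exact permutation tests over all splits of 6 and 6 (smallest p 0.00216) against a threshold of 0.05, and correlations by exact permutation over 720 orders. Normalization (RLE, upper quartile, TMM after removal of the 50 most counted genes), the filter (none, or 10 counts or more per library), the tool (DESeq2 1.42.0, limma-voom of limma 3.58.1, edgeR without the robust option), the thresholds and a block on the replicate number were varied, and every library was left out in turn. A sex covariate from Xist and Ddx3y was added after the data were seen. FLO replicate 3 was the only female by it, so this fit nearly repeats the one without that library. The fit was tested on simulated counts in which far fewer genes changed than were called here, equally in both directions. That simulation cannot show how the normalization behaves under changes as broad as these.

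Pairs of libraries within a group differed by a chi-square of at least 10.7 per degree of freedom, so no library was taken for a duplicate. The labels give no batch, so a batch that followed the groups could not be told apart from ethionine. The p-values set the difference between the groups against the spread between these mice. The intervals of the fold changes come from the edgeR quasi-likelihood fit and include the spread between mice. The limit given for Fgf15 covers counting error only. The 10 genes, the lists and the motifs were chosen with earlier results of these data known. By rule the 10 genes, every called gene of the pathway lists and the 3 genes most like Cyp7a1, Slc10a1 and Nr0b2 were named. Of the pathway genes that were not called, some are given only in the counts, and 1 further gene and 1 motif are not reported here. The others were named after their values were seen.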

Additional observations from a re-analysis of the deposited data

Results flagged for a closer look

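Of the 78 groups of 6 livers examined, 4 held a liver whose gap to its nearest neighbour as a share of the group's range passed Dixon's 95% critical value, and chance gives 3.9. Cyp7a1 in fibrotic replicate 5 was the lowest of its group, with a gap of 0.638 of the range. Hsd17b4 in FLO replicate 3, the library that went against its sex label, was lowest at 0.659. Slco1a1 in fibrotic replicate 4 was lowest at 0.676 and in FLO replicate 5 highest at 0.680, at 11 to 100 counts per library.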

How the results depend on the processing

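The falls of Slco1b2 and Abcb11 and both ratios to Cyp7a1 kept their direction and stayed called under every alternative that kept the thresholds. With an FDR of 0.05 and no fold limit, 6994 genes were called (3662 higher, 3332 lower), 7 of the 10 bile acid genes (1 higher) and 22 of the other pathway genes (8 higher, 14 lower). With an FDR of 0.01 and a log2 fold change over 1, the counts were 1697 genes (907 higher, 790 lower), 1 bile acid gene (lower) and 9 other pathway genes (3 higher, 6 lower). Over all genes the remaining alternatives gave 3566 to 4655 calls.

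Limma-voom called 7 bile acid genes, among 3976 calls over all genes. With 1 liver left out the count ran from 2 (without fibrotic replicate 4, both lower) to 6, with 2 to 5 lower and 0 to 1 higher. The gene called higher, 1 in each case, was Cyp7a1. Its log2 fold change was 1.13 under TMM without the top genes, at least 10 counts and the fit that was not robust, 1.11 in DESeq2, 1.22 in limma-voom and 1.33 with the sex covariate, and 0.94 to 1.32 with 1 liver left out. Cyp8b1 was called in limma-voom (-1.11), and ran from -1.33 to -0.83 with 1 liver left out. Cyp27a1 ran from -0.61 to -0.47 and Baat from -0.58 to -0.42, and Baat was -0.44 with the sex covariate and not called. Under RLE, upper quartile and TMM without the top genes, Cyp27a1 was at -0.58, -0.59 and -0.56 and stayed called. Slc10a1 was called with RLE (-0.65), upper quartile (-0.66), at least 10 counts (-0.63), DESeq2 (-0.65) and limma-voom (-0.66), and ran from -0.80 to -0.53 with 1 liver left out. The cause of these changes was not tested.

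Same-numbered livers of the groups did not deviate together (r from -0.16 to 0.10, with 0 of 6 correlating best with their own number), so the numbers were not taken as pairs. With the replicate block, 6 of the 10 genes and 3780 genes in all were called, with Cyp8b1 at -1.11 and Slc10a1 at -0.67 added, and Cyp7a1 at 1.19 had an adjusted p of 0.050 (edgeR).

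Signs turned only for values that had not been called. Cyp7b1 was -0.048 without fibrotic replicate 1 and -0.0054 without FLO replicate 6 (0.24 at most), and Nr1h4 was 0.035 without fibrotic replicate 4 (-0.11 at least). The r of Nr1h4 with Abcb11 in fibrotic livers ran from -0.19 to 0.47, of Nr0b2 with Cyp8b1 from -0.86 to 0.34 in fibrotic and -0.80 to 0.044 in FLO livers, and of Nr0b2 with Cyp7a1 in FLO livers from -0.62 to 0.33. The differences in cholangiocyte and macrophage marker sums ran from 48.9 to 87.9 and from 38.5 to 60.7 CPM with 1 liver left out. Both missed an adjusted p of 0.05 (exact permutation) whichever of FLO replicates 1 to 4 was left out, and the cause was not tested. Of the other pathway genes, Slco1a1 lost its call in 12 alternatives, Akr1c14 in 1 and Hsd17b4 in 1. Cyp7b1 had the fewest counts of the 10 genes, at 95 to 301 per library.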
